A study of Mus musculus with 4 samples.

Results

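Havcr2, Lag3, Tigit, Ctla4, Cd160, Entpd1, Tox and Nr4a2 are 8 genes read as markers of T cell exhaustion, and they were taken by name from the 11407 genes of the expression tables. Their transcripts were followed in tumour-infiltrating immune cells of mice treated with interleukin 12 (IL-12) plasmid or control plasmid. All 8 were found in both tables. T cells were the cells that the authors' graph-based clustering had put in clusters 5, 8, 9 and 12, which came to 4258 of 12979 cells in the IL-12 library and 826 of 4232 cells in the control library.

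The IL-12 group had received IL-12 plasmid and the control group control plasmid, in both cases injected into the tumour and followed by electroporation. Each group was 3 mice whose live CD45+ cells (CD45 marks blood-derived cells) were sorted and pooled, and each pool gave 1 gene expression library, made with a 5′ single-cell kit, and 1 library of T cell receptors. The labels disagree on the tumour: the series text calls it triple-negative, while the growth protocol describes HER2 expression induced in mammary tissue of mice 1 month old, and the library names in the tables carry 4T1, the name of a mammary tumour cell line. With 1 library per treatment no difference between treatments could be tested, mice within a pool cannot be told apart, and every interval below covers counting error only.

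A T cell that meets its antigen for weeks, as in a tumour, passes into a state called exhaustion, in which it divides and secretes cytokines poorly. Such cells carry several inhibitory receptors at once: Lag3 binds MHC class II, Tigit binds the poliovirus receptor Pvr, Ctla4 competes with Cd28 for Cd80 and Cd86, Havcr2 encodes Tim-3, and Cd160 binds Tnfrsf14. Entpd1 encodes the ectoenzyme CD39, which degrades extracellular ATP, while Tox and Nr4a2 encode transcription factors of the exhaustion programme that are induced downstream of the T cell receptor and the calcium-regulated factor NFAT. Single members are not specific to exhaustion: T cell activation raises most of the receptors, regulatory T cells carry Ctla4 and Tigit, and myeloid cells carry Havcr2 and Entpd1.

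In the mouse build GRCm38 the receptor genes lie at chr6:124904361-124911705 (Lag3), chr16:43648867-43664146 (Tigit), chr1:60887000-60915832 (Ctla4), chr11:46454935-46481255 (Havcr2) and chr3:96798763-96829351 (Cd160). Entpd1 lies at chr19:40612366-40741602, Tox at chr4:6686353-6991557 and Nr4a2 at chr2:57106830-57124003. Other annotated genes overlap Ctla4, Tox, Entpd1 and Cd160, among them Pdzk1 on the opposite strand at the 5′ end of Cd160, and none of these neighbours has a column in the tables. Because both regulators are known to act downstream of NFAT, the RefSeq promoter windows (build GRCm38.p6, 250 bases before to 50 after the listed start) of 3 members are shown as examples, on the gene's strand. Lag3 and Tox had no window in the source used, and those of Ctla4, Entpd1 and Cd160 are not shown. Capitals mark matches on either strand to the NFAT core GGAAA (read as TTTCC on the other strand) and to the AP-1 element TGANTCA.
Havcr2, chr11:46454681-46454980, plus strand: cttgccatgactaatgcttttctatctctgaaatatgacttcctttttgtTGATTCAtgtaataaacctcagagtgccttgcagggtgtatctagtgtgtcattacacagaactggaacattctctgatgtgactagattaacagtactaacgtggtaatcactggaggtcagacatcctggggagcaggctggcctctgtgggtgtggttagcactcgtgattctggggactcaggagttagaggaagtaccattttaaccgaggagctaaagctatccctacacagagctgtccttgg
Tigit, chr16:43664135-43664434, minus strand: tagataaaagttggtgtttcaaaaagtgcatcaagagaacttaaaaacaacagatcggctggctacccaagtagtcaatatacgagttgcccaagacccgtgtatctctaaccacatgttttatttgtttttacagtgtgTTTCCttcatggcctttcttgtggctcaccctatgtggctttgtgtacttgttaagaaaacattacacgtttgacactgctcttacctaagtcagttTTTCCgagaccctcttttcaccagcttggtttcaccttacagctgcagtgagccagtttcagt
Nr4a2, chr2:57123954-57124253, minus strand: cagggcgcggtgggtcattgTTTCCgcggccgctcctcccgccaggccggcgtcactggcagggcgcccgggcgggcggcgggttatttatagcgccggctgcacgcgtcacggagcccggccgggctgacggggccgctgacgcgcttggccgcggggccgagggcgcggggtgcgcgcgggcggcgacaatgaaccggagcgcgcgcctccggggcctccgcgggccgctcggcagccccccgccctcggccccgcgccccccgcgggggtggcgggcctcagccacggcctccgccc
The Tigit window held 2 NFAT cores and that of Nr4a2 held 1, and 61.3% of 32851 promoters in the table hold at least 1. The Havcr2 window held 0 NFAT cores and 1 AP-1 element, the latter found in 7.81% of promoters. The NR4A element AAAGGTCA, present in 1.51%, was in none of the 3. These are matches of letters and not measured binding sites.

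Levels are given as counts per 1000000 (CPM), the UMIs (molecule tags) of a gene over all UMIs of the same cells, and a difference of 1.5-fold or more with at least 20 UMIs over both groups was called higher or lower. The T cell clusters held 32.8% of the cells in the IL-12 library and 19.5% in the control library, at a median depth of 5444 and 5033 UMIs per cell. Their make-up differed: cluster 5 made up 58.4% of T cluster cells in the IL-12 library and 2.54% in the control library, while cluster 8 made up 1.57% and 69.2%. Cluster 9 is called CD4 by the authors, but in the IL-12 and control libraries 51.4% and 44.1% of its cells had a Cd8a UMI and 11.4% and 17.3% a Cd4 UMI, so clusters are named here by number. Summed neutrophil markers (6 genes) reached 37682 CPM in cluster 12 of the IL-12 library and 49433 CPM in that of the control library, against 345 CPM in IL-12 cluster 5 and 1510 CPM in control cluster 8. The 2 libraries shared 87 barcodes, 16 of them in T cell clusters of each library, and leaving these cells out changed no count of members.

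Across the T cell clusters, Cd160 and Tigit were higher in the IL-12 library, Nr4a2 and Tox were lower, and Lag3, Ctla4, Entpd1 and Havcr2 lay within 1.5-fold. Thus 2 of 8 members were higher, where 13.7% of 9866 measured genes were, and 2 of 8 were lower, where 35.4% of genes were. The median log2 ratio of the members was -0.16, beside -0.25 for all genes. Total UMIs were also replaced as the scale by the median ratio of genes with at least 20 UMIs in each library. This moved every log2 ratio up by 0.34, and 3 members were then higher and 1 lower. Each member's ratio over all T cell clusters is also given on that scale below, as relative to the median gene. Ratios by cluster, clone or coreceptor are on the CPM scale only. Over all sorted cells, where a change in the number of T cells and one in their RNA cannot be told apart, 4 of 8 members were higher (16.5% of genes) and 1 was lower (25% of genes).

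Cluster by cluster the counts were as mixed. In cluster 8, 1 of 8 members was higher in the IL-12 library, where 17.4% of genes were, and 3 were lower, where 27.2% were. In cluster 9, 4 were higher (18.9% of genes) and 0 lower (19.4% of genes), and in cluster 12, 3 were higher (20.4%) and 3 lower (31.1%). Setting the main T cell cluster of each library side by side, IL-12 cluster 5 over control cluster 8, 2 were higher (14.3% of genes) and 2 lower (38.7% of genes). Cluster 9 thus had no member lower. The 1 member higher in cluster 8 was Cd160, which was also among those higher in cluster 12, and both of its intervals span 1. The IL-12 and control cells compared numbered 67 and 572 in cluster 8, 997 and 179 in cluster 9, and 706 and 54 in cluster 12.

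**Figure D1:**
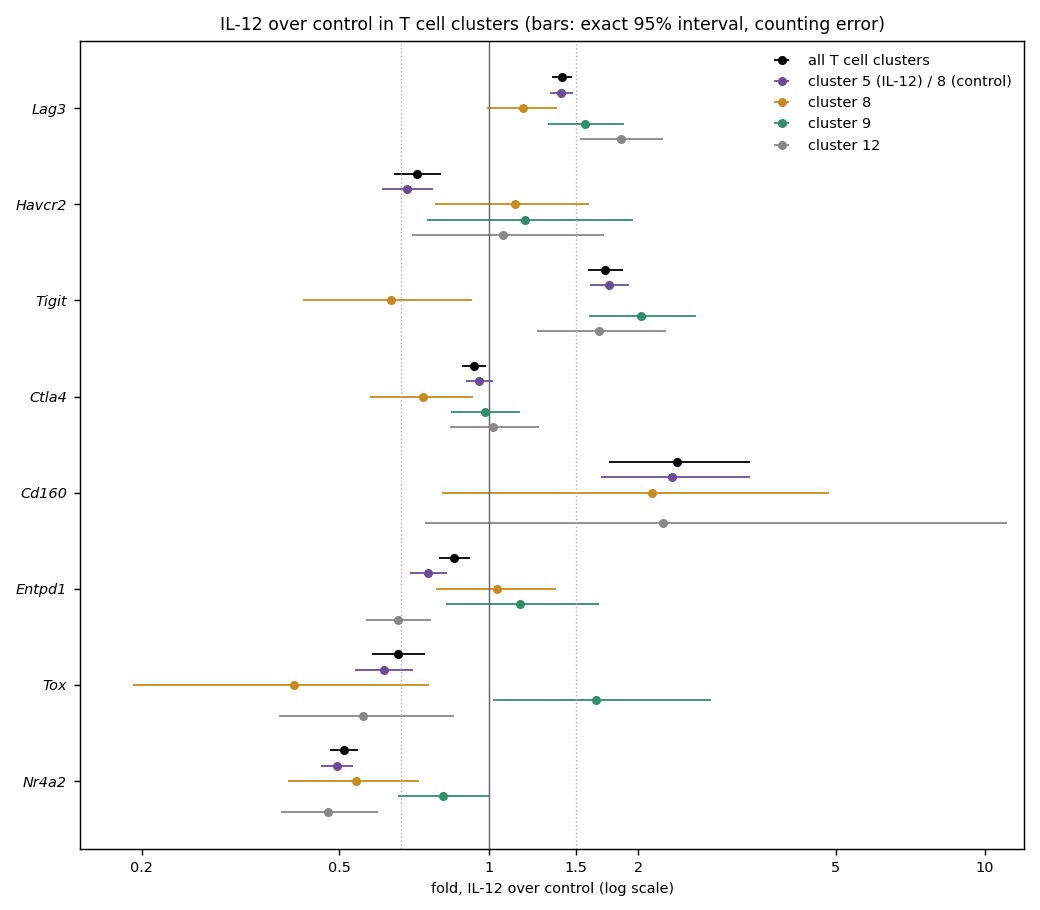
Ratio of CPM in the IL-12 library over the control library (log axis) for each member in all T cell clusters, in clusters 8, 9 and 12, and for IL-12 cluster 5 over control cluster 8, with exact 95% intervals; dotted lines stand at 1.5-fold each way. Cd160 and Tigit lie right of the upper line over all T cell clusters and Nr4a2 and Tox left of the lower one; median-of-ratios scaling moves every pooled point right by 0.34 on the log2 scale, which carries Tox inside the lines and Lag3 beyond the upper one. Cd160 in cluster 9 has no point because the control library had 0 UMIs there.

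Lag3 stood at 611 CPM in T cell clusters of the IL-12 library and 435 CPM in those of the control library, a ratio of 1.40 (95% interval 1.34 to 1.47), or 1.77 relative to the median gene. By cluster it was 687, 574, 449 and 469 CPM in clusters 5, 8, 9 and 12 of the IL-12 library, and 257, 491, 287 and 254 CPM in those of the control library. Lag3 was therefore higher in the IL-12 library in cluster 9 (ratio 1.57, 1.32 to 1.87) and cluster 12 (1.84, 1.53 to 2.24), and within 1.5-fold in cluster 8 (1.17, 0.991 to 1.37). Control cluster 5 held only 21 cells, whose neutrophil marker sum was 24801 CPM, and was not compared. A Lag3 UMI was seen in 73.5% of T cluster cells of the IL-12 library and 60.0% of those of the control library, and in 38.1% and 26.9% with every cell thinned to 1000 UMIs.

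Tigit was at 254 CPM in the IL-12 library and 148 CPM in the control library, a ratio of 1.72 (1.58 to 1.86; 2.17 relative to the median gene). The direction was not the same in every cluster. Tigit was higher in the IL-12 library in cluster 9 (293 and 145 CPM, ratio 2.03) and cluster 12 (177 and 106 CPM, ratio 1.67), and lower in cluster 8 (101 and 159 CPM, ratio 0.636, 0.422 to 0.924). Cluster 8 had 67 cells and 29 Tigit UMIs in the IL-12 library, against 572 cells and 529 UMIs in the control library. With the IL-12 clusters weighted to the control library's cluster shares, where these 67 cells carry most of the weight, the pooled Tigit ratio was 0.925. Set against each other, IL-12 cluster 5 had 278 CPM and control cluster 8 had 159 CPM (ratio 1.75, 1.60 to 1.92). Cluster identity and treatment cannot be told apart in that last pair.

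Ctla4 was close to even, with 318 CPM in IL-12 T cell clusters and 341 CPM in control T cell clusters (ratio 0.934, 0.884 to 0.988; 1.18 relative to the median gene). Clusters 9 (365 and 372 CPM) and 12 (228 and 223 CPM) were as close, and cluster 8 was at 265 CPM in the IL-12 library and 359 CPM in the control library. Havcr2 was at 68.9 CPM in the IL-12 library and 96.0 CPM in the control library, a ratio of 0.718 (0.65 to 0.80), short of the 1.5-fold call and at 0.906 relative to the median gene. Within clusters 8, 9 and 12 the Havcr2 ratios were 1.13, 1.18 and 1.07, each with an interval that spans 1. The main T cell clusters of the 2 libraries differed more: 75.9 CPM in IL-12 cluster 5 and 111 CPM in control cluster 8.

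Cd160 was the sparsest member, with 582 UMIs in T cell clusters of the IL-12 library and 42 in those of the control library. That is 22.6 CPM and 9.44 CPM, a ratio of 2.39 (1.75 to 3.36; 3.02 relative to the median gene). It was above the control library in each cluster compared, at 24.4 and 11.4 CPM in cluster 8, 14.9 and 6.63 CPM in cluster 12, and 13.7 and 0 CPM in cluster 9. With 3 UMIs taken as the floor of the control cluster, the ratio in cluster 9 would be 2.31. That value leaves out the counting error of the 36 UMIs of the IL-12 library, so it is not a lower limit. The intervals in clusters 8 (0.805 to 4.84) and 12 (0.743 to 11.1) span 1. A Cd160 UMI was found in 10.4% of T cluster cells of the IL-12 library and 4.24% of those of the control library.

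Entpd1 was at 173 CPM in the IL-12 library and 203 CPM in the control library (ratio 0.852, 0.793 to 0.916; 1.07 relative to the median gene). It was past 1.5-fold, at 0.553, when only cells with fewer than 3 myeloid marker UMIs were kept, 2045 of the IL-12 library and 22 of the control library. Its highest level among T cell clusters was in cluster 12 of both libraries, at 282 CPM (268 to 295) with IL-12 and 429 CPM (370 to 493) with control plasmid, where it was lower in the IL-12 library (ratio 0.657). Cluster 12 is also the T cell cluster with the most neutrophil transcripts, 37682 and 49433 CPM, and the part of these in the Entpd1 level was not tested. In cluster 9, with 759 and 3470 CPM of neutrophil markers, Entpd1 was at 89.2 and 77.2 CPM.

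The 2 transcription factors were lower in the IL-12 library on the CPM scale. Nr4a2 had 141 CPM in IL-12 T cell clusters and 275 CPM in control T cell clusters, a ratio of 0.511 (0.479 to 0.546; 0.645 relative to the median gene). It was lower in clusters 8 (164 and 303 CPM, ratio 0.539) and 12 (97.7 and 205 CPM, ratio 0.475) and within 1.5-fold in cluster 9 (178 and 220 CPM, ratio 0.809). Nr4a2 is an immediate early gene, and 12 dissociation stress genes, checked for that reason, had a median log2 ratio of 0.07, beside -0.25 for all genes, with 3 higher (13.7% of all genes) and 3 lower (35.4% of all genes) in the IL-12 library. Among them the IL-12 and control libraries had 73.8 and 25.8 CPM of Atf3, and 44.6 and 200 CPM of the heat shock gene Hspa1b. Their part in the Nr4a2 difference was not tested.

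Tox had 49.5 CPM in IL-12 T cell clusters and 75.3 CPM in control T cell clusters, a ratio of 0.657 (0.582 to 0.744). This lies just past 1.5-fold, and relative to the median gene it was 0.829 and not called. Tox was lower in the IL-12 library in cluster 8 (34.8 and 85.9 CPM, ratio 0.406, on 10 and 286 UMIs) and cluster 12 (35.7 and 64.1 CPM, ratio 0.558). In cluster 9 it was higher, at 61.8 and 37.6 CPM (ratio 1.64, 1.02 to 2.80), on 162 and 19 UMIs. Leaving out cluster 12, which holds the most neutrophil transcripts, gave a pooled ratio of 0.698, within 1.5-fold. Among cells with fewer than 3 myeloid marker UMIs, of which the control library had 22, the Tox ratio was 1.64 and the Nr4a2 ratio 0.963.

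Other clusters gave the background. Outside the T cell clusters, Lag3 was at 43.2 CPM in the IL-12 library and 9.80 CPM in the control library, so that T cell clusters were 14.2-fold and 44.4-fold higher than other clusters of their own library. At 1.5-fold, 6 of 8 were higher in T cell clusters than elsewhere in the IL-12 library and 7 of 8 in the control library, where 51.8% and 55.3% of all measured genes were. The member that was lower in both was Entpd1, where 24.3% and 21.9% of genes were lower. The T cell excess was 10-fold or more for Lag3, Tigit, Ctla4, Tox and Cd160 in both libraries, and 3.16-fold (IL-12) and 7.60-fold (control) for Nr4a2. Without the neutrophil clusters the excess in the IL-12 library was 10.6-fold for Tigit and smaller for Cd160 (9.11), Lag3 (8.0), Tox (7.22), Ctla4 (6.75) and Nr4a2 (1.78). For the same members in the control library, the lowest excess under any setting was 3.59-fold for Nr4a2 and 8.37-fold for Cd160. It was 20.7-fold for Tox, 22.5-fold for Lag3, 28.5-fold for Tigit and 71.8-fold for Ctla4. Havcr2 was 1.35-fold higher in T cell clusters of the IL-12 library and 1.77-fold higher in those of the control library, and macrophages held 34.8% and 35.6% of its UMIs. With the neutrophil clusters left out of the comparison, the Havcr2 ratio was 0.712 (IL-12) and 0.939 (control), so its direction turned in both libraries.

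**Figure D2:**
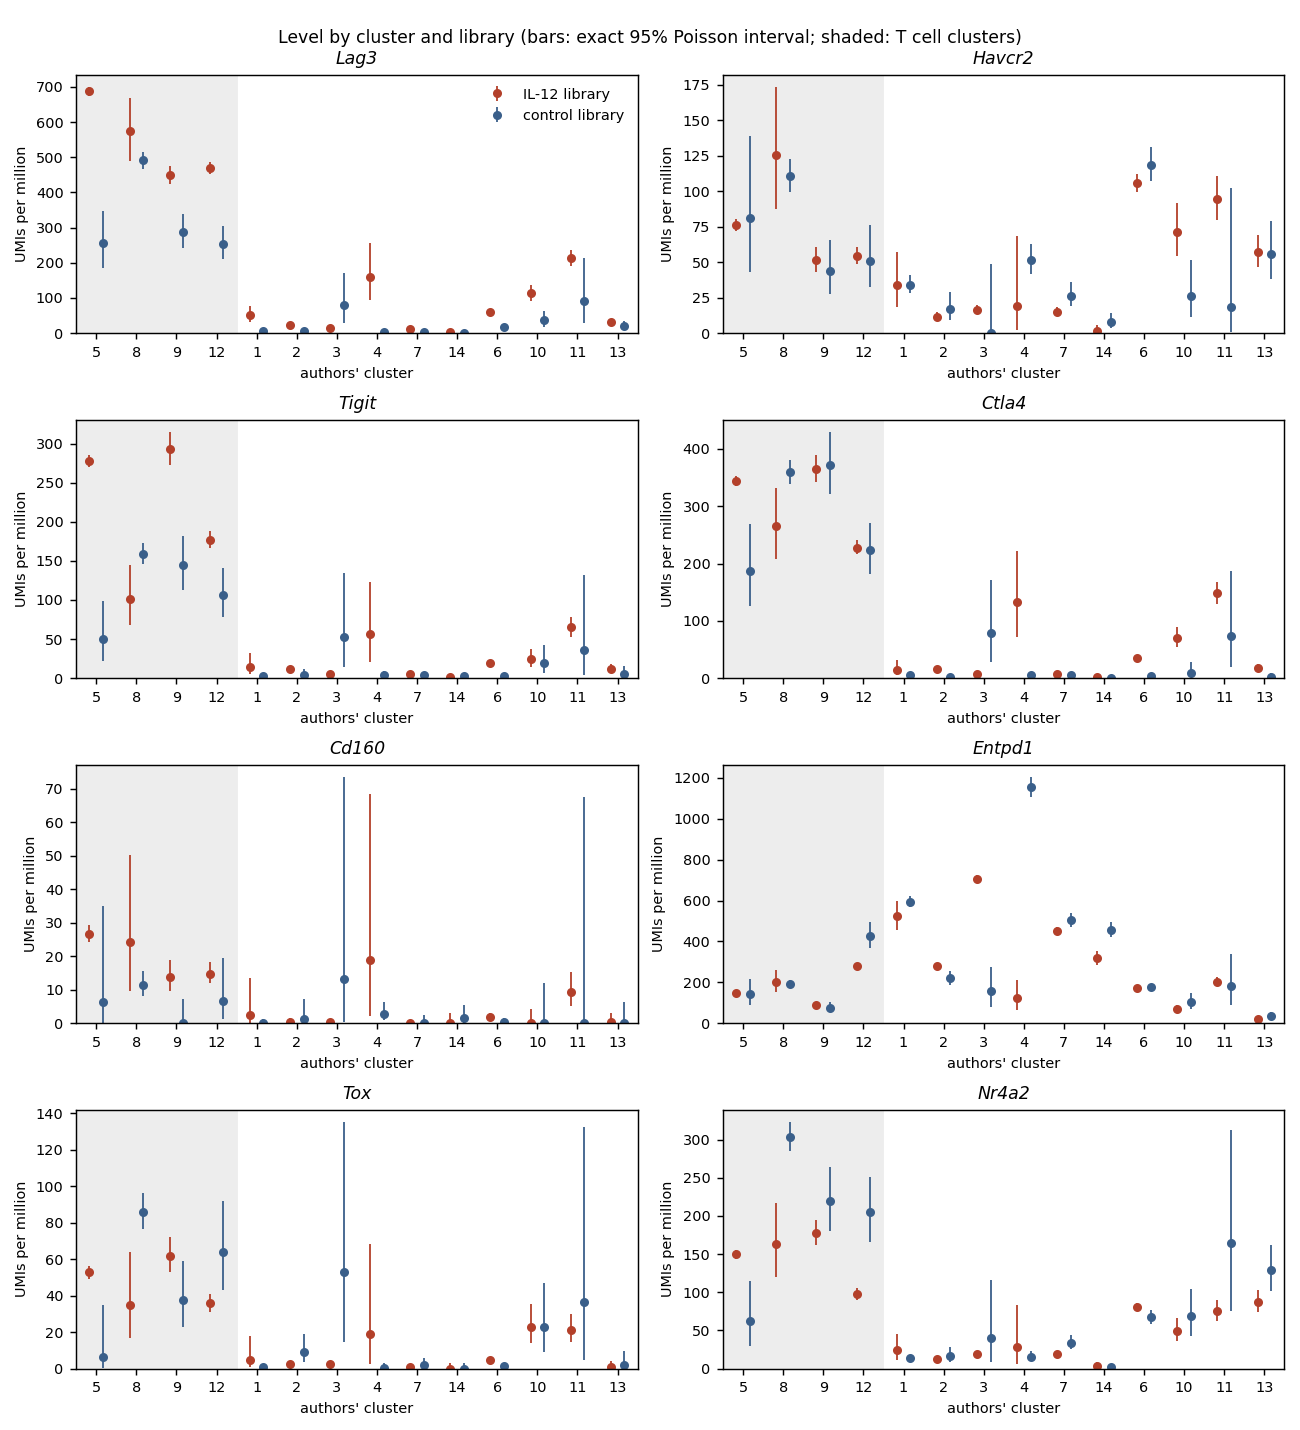
CPM of each member in the authors' 14 clusters, T cell clusters 5, 8, 9 and 12 shaded, IL-12 library left (red) and control library right (blue) in each pair, with exact 95% Poisson intervals. Lag3, Tigit, Ctla4 and Tox are highest in the shaded clusters, Havcr2 is as high in cluster 6, and Entpd1 reaches 1153 CPM in control cluster 4; clusters with few cells in a library have wide intervals.

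Entpd1 was the exception, lower in T cell clusters than in other clusters, at 173 and 338 CPM in the IL-12 library (ratio 0.510) and 203 and 477 CPM in the control library (ratio 0.425). Neutrophils, as the authors class them, held 57.7% of Entpd1 UMIs in the IL-12 library and 78.3% in the control library, at 493 and 643 CPM. Its highest cluster was cluster 4 of the control library, 552 cells of a cluster classed mostly as neutrophils, at 1153 CPM. With the neutrophil clusters left out of the comparison, T cell clusters had an Entpd1 ratio over the rest of 1.14 in the IL-12 library and 1.33 in the control library.

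The other clusters also differed between libraries: outside the T cell clusters 5 of 8 members (Lag3, Ctla4, Tigit, Cd160 and Tox) were higher in the IL-12 library, where 16.7% of genes were, and 0 lower, where 22.9% were. In neutrophils Lag3 was at 13.4 CPM in the IL-12 library and 3.38 CPM in the control library, and in macrophages it was at 65.3 and 17.6 CPM. The same cells carried transcripts of T cell markers: summed over 5 genes, these came to 254 CPM outside the T cell clusters in the IL-12 library and 71.5 CPM in the control library. Cluster 11, classed as dendritic cells, had 213 CPM of Lag3 in the IL-12 library, on 837 cells, while the control library had 19 such cells. Free RNA or cell doublets as a source of these UMIs was not tested. The doublet status of cells is not recorded in the tables, and no cells were removed.

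A clone was recorded for 3347 T cluster cells of the IL-12 library (705 clones) and 473 of the control library (190 clones), and clone size is the number of cells of a library that share a clonotype as the authors assigned it. In both libraries Lag3, Havcr2, Nr4a2, Tox and Cd160 were higher in expanded clones (2 or more cells) than in clones seen as 1 cell. Tigit and Ctla4 stayed within 1.5-fold. In all, 6 of 8 members were higher in expanded clones of the IL-12 library, where 11.6% of measured genes were, and 5 of 8 in the control library, where 13.8% were. None of the 8 was lower in either library, where 11% and 9.36% of genes were. The calls of Tox, Cd160 and, in the control library, Havcr2 lie near 1.5-fold and were lost under some settings. The Tox ratio was 1.47 in the IL-12 library without its largest clone, and 1.37 (IL-12) and 1.18 (control) with cells thinned to 1000 UMIs. The Cd160 ratio was 1.17 in IL-12 cluster 5 and 1.41 in control cluster 8, and the Havcr2 ratio in the control library was 1.48 without its largest clone.

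Lag3 was at 169, 417, 634 and 767 CPM in clones of 1, 2 to 4, 5 to 19 and 20 or more cells of the IL-12 library, and at 317, 411, 591 and 693 CPM in those of the control library. The 4 intervals are separate in the IL-12 library, and in the control library only those of the 2 largest classes overlap, with expanded over single-cell ratios of 4.32 (3.96 to 4.72) and 1.83 (1.61 to 2.09). The steeper course in the IL-12 library came from the low end, since its single-cell clones held less Lag3 than those of the control library (ratio 0.533, 0.461 to 0.619). At 2 cells and above the Lag3 ratios of IL-12 over control were 1.01, 1.07 and 1.11 on the CPM scale. The all-gene median log2 ratios in these classes were -0.24, -0.22 and -0.27. Clones of 20 or more cells held 2326 of 3347 cells in the IL-12 library and 134 of 473 cells in the control library. The part of clone size in the higher pooled level of Lag3 was not tested. Clone size also depends on how many T cells were captured, which differed between the libraries, and the size classes were not matched for cluster.

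Nr4a2 followed clone size in both libraries and was lower in the IL-12 library at every size. It was at 62.9, 99.7, 157 and 167 CPM in the 4 size classes of the IL-12 library and at 160, 241, 354 and 402 CPM in those of the control library, giving IL-12 over control ratios of 0.393, 0.414, 0.443 and 0.417. Tox was at 34.3, 29.5, 41.9 and 57.0 CPM in the IL-12 library and 45.5, 64.7, 90.2 and 122 CPM in the control library, with ratios of 0.755, 0.457, 0.465 and 0.466. In clones of 2 or more cells the Tox ratio was thus further below 1 than over the pooled clusters. All-gene medians of the log2 ratio in the 4 classes were -0.22, -0.24, -0.22 and -0.27, so these ratios carry the same shift of scale as the pooled ones. Of the 8 members, 4, 3, 4 and 2 were lower at the 4 sizes, where 32.5%, 35.0%, 34.0% and 38.3% of genes were. At each size 2 were higher, where 16.2%, 17.9%, 15.4% and 19.3% of genes were.

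**Figure D3:**
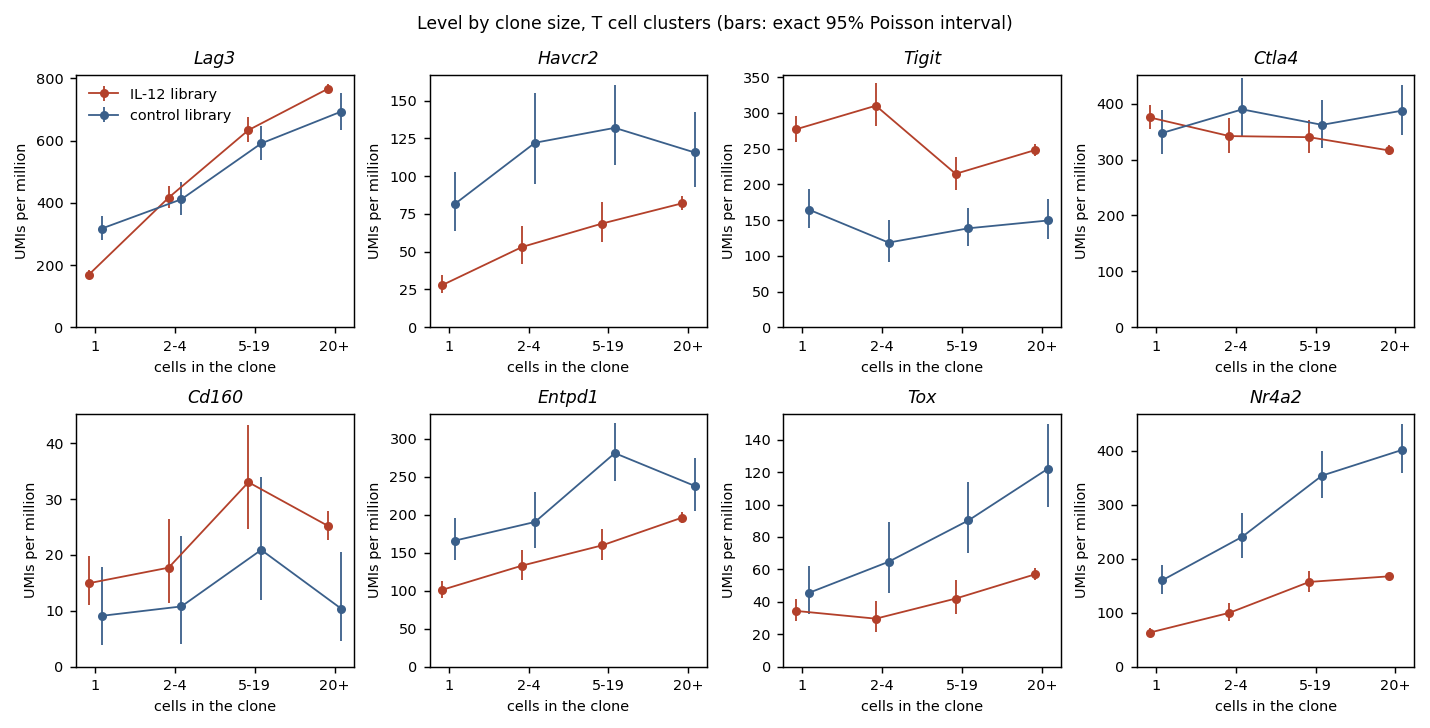
CPM of each member in T cluster cells by number of cells in the clone (1, 2 to 4, 5 to 19, 20 or more), IL-12 library left (red) and control library right (blue), with exact 95% Poisson intervals. Lag3 climbs with clone size in both libraries, Nr4a2 climbs with the IL-12 library below the control library in every class, and Tigit and Ctla4 run nearly level.

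Havcr2 was at 28.0, 53.2, 68.6 and 82.0 CPM in the 4 classes of the IL-12 library and 81.8, 122, 132 and 116 CPM in those of the control library. Its expanded over single-cell ratio was 2.81 (2.27 to 3.53) with IL-12 plasmid and 1.51 (1.16 to 1.99) with control plasmid, and in the control library the 3 expanded classes have overlapping intervals. Entpd1 was at 101, 133, 160 and 196 CPM in the IL-12 library and 166, 190, 281 and 238 CPM in the control library, with ratios of 1.86 (1.66 to 2.1) and 1.45 (1.21 to 1.76). Cd160 reached 33.0 CPM in clones of 5 to 19 cells of the IL-12 library and 20.9 CPM in those of the control library, on 52 and 16 UMIs. The control ratio for Cd160, 1.58 (0.707 to 3.98), has an interval that spans 1.

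Tigit, in contrast, was at 277, 310, 215 and 248 CPM from the smallest to the largest clones of the IL-12 library and at 165, 119, 139 and 150 CPM in those of the control library. At matched clone size, with clusters not matched, the IL-12 over control ratios were 1.68, 2.62, 1.55 and 1.66. Ctla4 was at 375, 342, 340 and 316 CPM in the IL-12 library and 348, 390, 362 and 387 CPM in the control library. So on the CPM scale Tigit differed between libraries at each clone size and little along clone size. Lag3 differed along clone size and, above 1 cell, little between libraries on that scale. The expanded over single-cell ratios were 0.902 and 0.833 for Tigit, and 0.853 and 1.09 for Ctla4, in the IL-12 and control libraries.

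Cluster 9 holds more of the small clones: 42.3% of cells in single-cell clones and 9.20% in clones of 20 or more in the IL-12 library, and 9.66% and 8.21% in the control library. The same comparison was therefore made inside clusters. In IL-12 cluster 5, expanded clones were higher for 5 of 8 members, where 12.5% of genes were, with 781 CPM of Lag3 in expanded and 212 CPM in single-cell clones (ratio 3.69, 3.32 to 4.11). In IL-12 cluster 9 it was 5 of 7 measured members (16.3% of genes) and in IL-12 cluster 12 it was 4 of 8 (18.3% of genes), with Lag3 ratios of 6.39 and 4.45. In control cluster 8 it was 4 of 8 (14% of genes): Nr4a2 (ratio 2.0), Tox (1.90), Entpd1 (1.82) and Lag3 (1.69), while Havcr2 was at 127 CPM in expanded and 106 CPM in single-cell clones. No measured member was lower in expanded clones in these clusters, where 11.6%, 12%, 11.6% and 9.54% of genes were. Single-cell clones of IL-12 cluster 5 had 212 CPM of Lag3 and those of control cluster 8 had 354 CPM.

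Clones of 20 or more T cluster cells could be read one by one, 12 in the IL-12 library and 2 in the control library. Lag3 ranged from 326 to 942 CPM over the 12 clones of the IL-12 library, with a median of 778, and was 784 and 449 CPM in the 2 of the control library. Nr4a2 ranged from 69.2 to 251 CPM, with a median of 147, and was 361 and 511 CPM in the control clones, both above all 12 clones of the IL-12 library. Tox ranged from 0 to 80.1 CPM, with a median of 53.7, and was 127 and 110 CPM in the control clones, again without overlap. The share of all genes without such overlap was not computed. Over clones of 20 or more cells together, 38.3% of genes were lower in the IL-12 library. Havcr2 (40.7 to 163 CPM, median 73.8) and Entpd1 (132 to 260 CPM, median 203) overlapped the control clones, which had 129 and 81.3 CPM of Havcr2 and 243 and 225 CPM of Entpd1. Tigit also overlapped, at 130 to 357 CPM in the IL-12 clones and 148 to 150 CPM in the control clones. The 2 largest clones of the IL-12 library, 645 and 636 cells, differed from each other in Nr4a2 (227 and 132 CPM), Tigit (310.2 and 200.4 CPM) and Cd160 (17.1 and 32.2 CPM). The 2 control clones had 85.3% and 87.2% of their cells in cluster 8 and 0% in cluster 5. The 12 clones of the IL-12 library had 47.7% to 83.2% in cluster 5 and at most 3.23% in cluster 8. Cluster and treatment thus cannot be told apart in these clones. Which mouse each clone came from is not recorded in the tables.

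**Figure D4:**
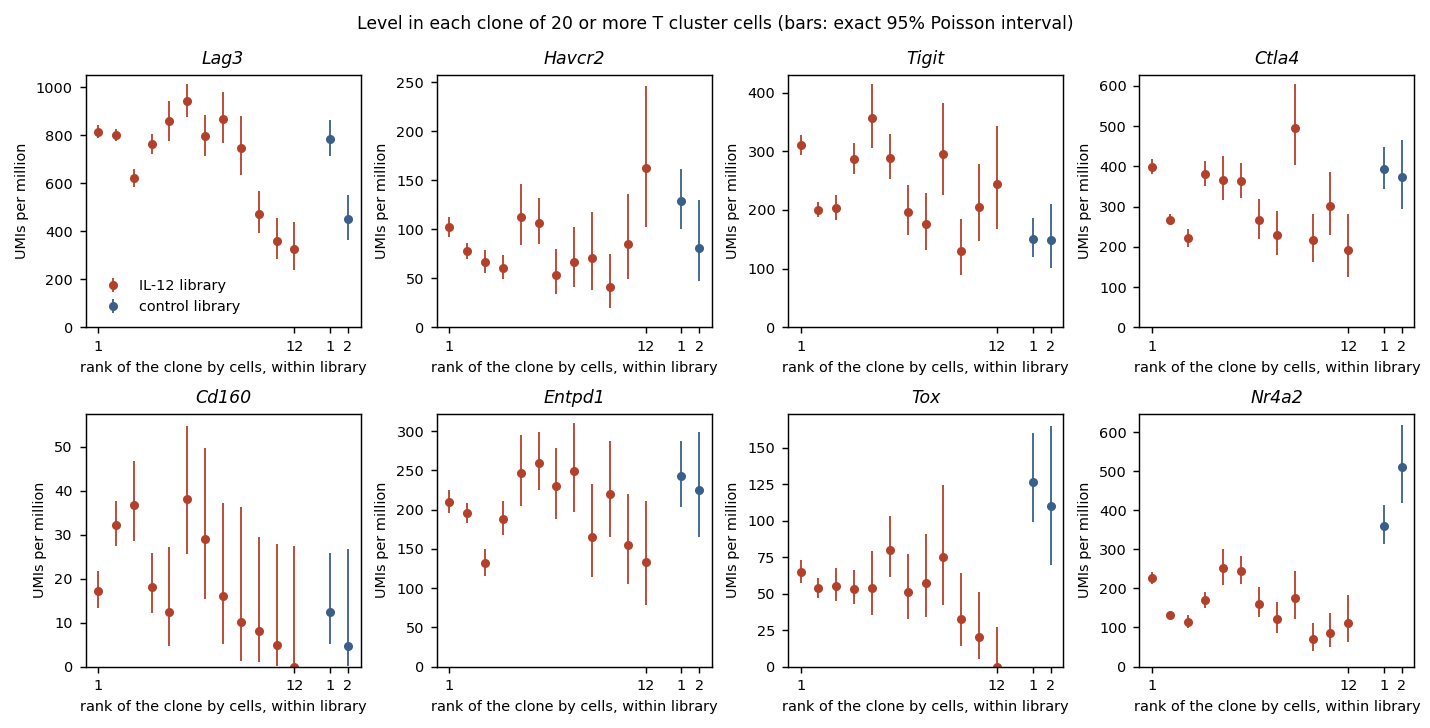
CPM of each member in every clone of 20 or more T cluster cells, ordered by number of cells within the IL-12 library (12 clones, left, red) and the control library (2 clones, right, blue), with exact 95% Poisson intervals. Nr4a2 and Tox of both control clones lie above all clones of the IL-12 library, while Lag3, Havcr2, Tigit, Ctla4, Cd160 and Entpd1 overlap.

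Comparing only clones that hold 1% or more of a library's T cluster cells with a clone (10 clones with 2234 cells in the IL-12 library, 15 with 242 cells in the control library) sets clone size against the number of cells captured. There the ratios of IL-12 over control were 1.69 for Tigit, 1.58 for Cd160, 1.20 for Lag3, 0.859 for Ctla4, 0.745 for Entpd1, 0.636 for Havcr2, 0.542 for Tox and 0.439 for Nr4a2. Havcr2 was thus past 1.5-fold on the CPM scale in these clones, at 81.9 CPM in the IL-12 library and 129 CPM in the control library.

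Members also differed by coreceptor and Foxp3 transcripts. In T cluster cells of the IL-12 library with a UMI of Foxp3, the defining factor of regulatory T cells, Ctla4 was at 822 CPM and in cells without one at 301 CPM (ratio 2.73, 2.52 to 2.95). Tigit was at 596 and 242 CPM (ratio 2.46) and Tox at 82.8 and 48.3 CPM (ratio 1.71). The other 5 members were lower in cells with a Foxp3 UMI, among them Lag3 at 187 and 626 CPM (ratio 0.298) and Nr4a2 at 43.1 and 144 CPM (ratio 0.299). So 3 of 8 members were higher and 5 lower, where 17.6% and 21.3% of genes were. Such cells numbered 154 in the IL-12 library and 20 in the control library, and the 20 of the control library had 1211 CPM of Ctla4, 420 CPM of Tigit and 72.0 CPM of Tox (6 UMIs), against 324, 143 and 75.4 CPM in its cells without a Foxp3 UMI. Leaving such cells out of both libraries gave IL-12 over control ratios of 1.70 for Tigit, 0.929 for Ctla4 and 0.641 for Tox.

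**Figure D5:**
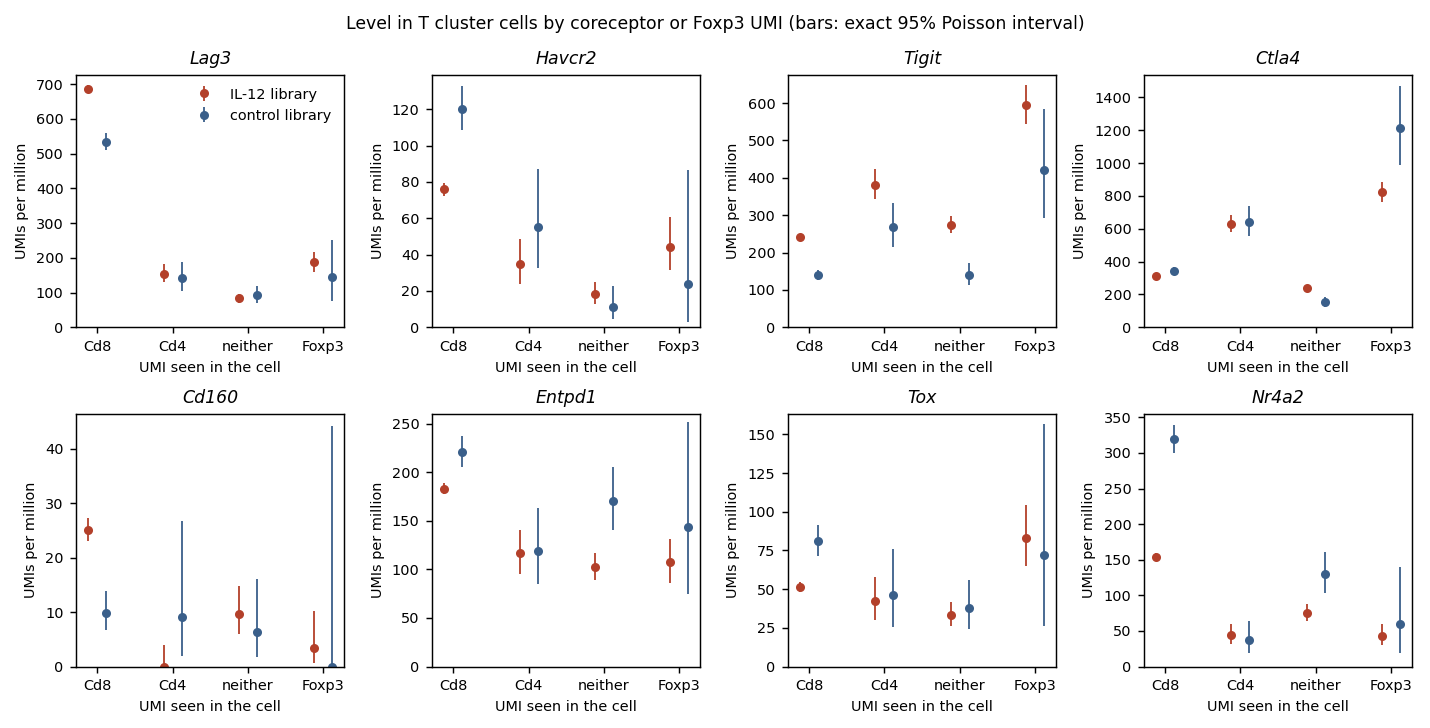
CPM of each member in T cluster cells with a Cd8a or Cd8b1 UMI and no Cd4 UMI, a Cd4 UMI and no Cd8a or Cd8b1 UMI, neither, or a Foxp3 UMI (a set that overlaps the others), IL-12 library left (red) and control library right (blue), with exact 95% Poisson intervals. Lag3, Havcr2, Cd160 and Nr4a2 are highest in cells with a Cd8 UMI, and Ctla4 and Tigit in cells with a Foxp3 UMI.

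Cells with a Cd8a or Cd8b1 UMI and no Cd4 UMI, 3489 in the IL-12 library and 572 in the control library, held 685 and 535 CPM of Lag3, 75.8 and 120 CPM of Havcr2 and 25.1 and 9.80 CPM of Cd160. Cells with only a Cd4 UMI, 183 and 78, held 154 and 141 CPM of Lag3 and 628 and 643 CPM of Ctla4. Nr4a2 was lower in the Cd8 set of the IL-12 library (154 and 319 CPM, ratio 0.482), and in the Cd4 set it was at 44.3 and 36.7 CPM (ratio 1.21, 0.622 to 2.52) on 41 and 12 UMIs. The difference between those 2 ratios was not tested. In the Cd8 set 2 of 8 members were higher, where 14.1% of genes were, and 3 were lower, where 35.2% were, since Havcr2 (ratio 0.631) passed 1.5-fold beside Tox (0.631) and Nr4a2. These calls are on the CPM scale, where the all-gene median log2 ratio in this set was -0.25. In the Cd4 set 0 of 7 measured members were higher, where 21.7% of genes were, and Havcr2 alone was lower, where 34.4% were. It was at 34.6 CPM (23.6 to 48.8) and 55.1 CPM (32.6 to 87.1) on 32 and 18 UMIs, with overlapping intervals.

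Co-detection of members in the same cell was counted next. With each cell thinned to 2000 UMIs, 35.7% of T cluster cells of the IL-12 library and 32.9% of those of the control library had a UMI of 3 or more of the 8, against 1.99% and 0.551% of cells in other clusters. The single-gene shares alone, multiplied as if independent, give 33.3% and 30.0%. The first lies below the interval of the observed share in the IL-12 library (34.2 to 37.2). The second lies inside that of the control library (29.6 to 36.4). The widest gap in a T cell cluster was in IL-12 cluster 9, with 28.7% (25.4 to 32.3) observed beside 22.7%. In the other T cell clusters counted, the value from the shares lay inside the observed interval. In control cluster 12, on 54 cells, the observed share (18.5%, 9.25 to 31.4) was below that from the single-gene shares (19.9%). The share was 40.8% (38.8 to 42.7) in IL-12 cluster 5 and 38.8% (34.8 to 42.9) in control cluster 8, which overlap. A Lag3 UMI was more frequent in cells with a Havcr2 UMI than in cells without one in each of the 4 clusters read. Of cells with a Havcr2 UMI in control cluster 8, 70.6% (59.7 to 80.0) also had a Lag3 UMI, while 44.2% (39.7 to 48.8) of the cells without one did. In IL-12 clusters 9, 12 and 5 these shares were 65.0% beside 34.4%, 66.2% beside 43.6% and 69.7% beside 61.8%. For Entpd1 among cells with a Havcr2 UMI, beside cells without one, the clusters differed: the shares were 42.4% beside 23.0% in control cluster 8 and 33.9% beside 23.1% in IL-12 cluster 5. They were 20% (10.8 to 32.3) beside 15.1% (12.4 to 18.1) in IL-12 cluster 9 and 41.5% beside 40.3% in IL-12 cluster 12, with overlapping intervals. Co-detection was also set over the product of the single-gene shares, in IL-12 clusters 5, 9 and 12 and control cluster 8. It was 1.11, 1.75, 1.45 and 1.47 for Havcr2 with Lag3 and 1.04, 0.988, 1.27 and 1.06 for Havcr2 with Tigit. For Havcr2 with Ctla4 it was 0.950, 1.12, 1.27 and 1.35. Pairs of other members are not shown.

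The authors' own exhaustion score, available for 3310 cells of the IL-12 library and 483 of the control library, is a deposited value per cell whose genes are not given in the sources used here. Scores were put in a library by the library name of each cell, since another column of that table names IL-12 for all cells of both libraries. Its mean was -0.159, -0.0493, -0.0146 and 0.0465 in clones of 1, 2 to 4, 5 to 19 and 20 or more cells of the IL-12 library, and -0.0969, -0.0122, 0.0651 and 0.0697 in those of the control library. The score was higher in larger clones in both libraries and differed between the libraries by -0.00311 over all cells (IL-12 minus control), beside an SD of 0.185 and 0.182 over cells. At each of the 4 clone sizes the IL-12 mean was lower, with differences (IL-12 minus control) of -0.0622, -0.0371, -0.0797 and -0.0232. By cluster the sign was mixed, with differences of 0.0640 in cluster 8, -0.0346 in cluster 9 and 0.0150 in cluster 12. These rest on few cells of 1 library each time. The IL-12 and control cells numbered 20 and 397 in cluster 8, 536 and 33 in cluster 9, and 545 and 32 in cluster 12. The SDs over cells ran from 0.147 to 0.223. Over cells, Pearson's r of the score with the log2 level was 0.481 for Lag3, 0.341 for Havcr2 and 0.300 for Entpd1 in the IL-12 library, and 0.391, 0.427 and 0.350 in the control library. For Tigit, Ctla4, Tox and Cd160 it ran from -0.0458 to 0.130. These cells share a library and its depth, and a score may hold the genes it is set against.

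Other genes of the pathway were read from lists in T cell clusters. Of 20 further exhaustion genes, 2 were higher in the IL-12 library, 9 were lower and 9 lay within 1.5-fold, with a median log2 ratio of -0.42 beside -0.25 for all genes. Over all genes 13.7% were higher and 35.4% lower, and the counts of this and the next lists are to be read against those shares. The AP-1 family factor Batf was at 90.9 CPM in the IL-12 library and 37.1 CPM in the control library, and the inhibitory receptor Lilrb4a at 130 and 71.0 CPM. Nr4a3, a close relative of Nr4a2, was at 102 and 334 CPM (ratio 0.305), and Ikzf2, encoding Helios, at 147 and 401 CPM (ratio 0.366). Pdcd1, encoding PD-1, was at 694 and 561 CPM (ratio 1.24). Relative to the median gene these ratios are higher by the same 0.34 on the log2 scale.

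Of 19 ligands and partner receptors of the members, 16 were measured, with 2 higher, 3 lower and 11 within 1.5-fold (median log2 ratio -0.28). Lgals3, encoding the Lag3 ligand galectin-3, was at 765 CPM in the IL-12 library and 469 CPM in the control library, and Tnfrsf14, the Cd160 ligand, at 8.51 and 5.62 CPM. The Tigit ligand Pvr was at 4.58 and 11.2 CPM, and Nt5e, encoding CD73, which acts after CD39 in making adenosine, at 51.9 and 161 CPM (ratio 0.321). Of 10 stem-like genes, 2 were higher and 4 lower (median -0.40), with Id3 at 7.46 and 4.27 CPM, Cxcr5 at 2.37 and 1.35 CPM, Tcf7, which marks exhausted cells that can still renew, at 19.6 and 38.9 CPM, and Bcl6 at 7.15 and 27.4 CPM. Of 10 genes of T cell receptor activation, 2 were higher and 3 lower (median -0.21; 4 of the 10 are also in the exhaustion list), with the NF-kB inhibitor gene Nfkbia at 850 and 389 CPM, Egr3 at 3.30 and 2.02 CPM and Nfatc1 at 106 and 203 CPM. Egr3 rests on 85 and 9 UMIs, with an interval of the ratio from 0.821 to 3.69. For Cxcr5 (61 and 6 UMIs) the interval runs from 0.762 to 4.97, and for Tnfrsf14 (219 and 25 UMIs) from 0.999 to 2.39, so all 3 span 1. Nr4a1 and Nr4a3 were the other 2 lower, and Egr1, Egr2, Cd69, Tnfrsf4 and Tnfrsf9 lay within 1.5-fold.

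Over 24 sums of a cluster and a library with at least 50 cells, the genes most like each member among 8370 were named by Pearson's r of log2(CPM + 10), as a description. Lag3 was most like Sh2d2a (0.988), Lck and Ms4a4b, Tigit most like Sult2b1 (0.992), Sh2d1a and Zap70, and Ctla4 most like Cd27 (0.987), Sh2d2a and Cd28. Tox was most like Abcb1a (0.971) and Camk4, Nr4a2 most like Eef2 (0.973), G3bp2 and Runx3, and Cd160 most like the granzyme gene Gzme (0.949), Ovol2 and Gzmd. Havcr2 (Calr, 0.907, then Arl4c and Os9) and Entpd1 (Slfn1, 0.939, then Bcl2l1 and Lcp2) had the weakest closest genes. Among the members, Lag3, Tigit, Ctla4 and Tox correlated with each other at 0.913 to 0.975, while Entpd1 had negative values with all 7 others. The sums share 2 libraries, and most of this range is the step between T cell clusters and the rest.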

How the data were processed

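Per the submitters' processing notes, reads were processed with Cell Ranger 2.1.0, STAR 2.6.1 and Partek on mm10, in steps the notes do not order. The deposited expression tables hold log2 values of CPM plus 1 per cell, a scale read from the values, and the authors also deposited an exhaustion score per cell, whose making no source used here describes. Undoing the log2 gave whole UMIs within 0.1 for all but 13 of 13883686 values of the IL-12 library and 6 of 4251108 of the control library. The libraries held 59956932 and 17306854 UMIs, with medians of 3418 and 3021 per cell.

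UMIs were summed over the cells of a group and divided by all UMIs of those cells. Levels have exact Poisson 95% intervals, shares exact Clopper-Pearson intervals and ratios exact intervals conditional on the summed UMIs, all for counting error only. Log2 ratios carry a pseudocount of 1 CPM. The members, lists and thresholds were chosen with earlier results of these data known. Genes of a list named in the text are its 2 highest and 2 lowest log2 ratios, and Pdcd1, Atf3 and Hspa1b stand beside a result. Like genes needed 200 UMIs, and 1 of them is not reported here. Simulated Poisson counts for 9855 genes gave intervals that held the true ratio for 95.6%. Such counts hold no variance between cells, clones or mice, so this checks the calculation only and not the intervals on these data. Analyses used Python 3.11.15, numpy 2.4.6, pandas 2.3.3 and scipy 1.17.1. The T cell receptor sequences were not used beyond clone membership.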

Additional observations from a re-analysis of the deposited data

Results flagged for a closer look

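Tigit differed in direction between clusters: the ratio of IL-12 over control was 2.03 in cluster 9 and 1.67 in cluster 12, and 0.636 in cluster 8. Tox did so as well, with a ratio of 1.64 in cluster 9, 0.406 in cluster 8 and 0.558 in cluster 12. With 1 library per treatment the difference between clusters was not tested. Cluster 8 rests on 67 cells of the IL-12 library, and cluster 9 on 179 cells and 19 Tox UMIs of the control library.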

How the results depend on the processing

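Of 78 recomputed counts and medians, 70 stayed near the reported value, and of 366 single ratios 276 did, 85 moved and 5 reversed. The count of members lower in the IL-12 library was 1 in place of 2 under median-of-ratios scaling, with the mean of per-cell CPM and without cluster 12, Tox being the member lost. The count of members higher was 1 in place of 2 with the IL-12 clusters weighted to the control library's cluster shares, where Tigit had a ratio of 0.925. The median log2 ratio, -0.16 as reported, was 0.17 under median-of-ratios scaling, -0.0679 with cells thinned to 1000 UMIs, -0.0314 without cells with 3 or more myeloid marker UMIs and -0.32 in clones of 1% or more of cells. Leaving out the cells with myeloid UMIs kept 2045 cells of the IL-12 library and 22 of the control library, and gave Tox a ratio of 1.64 and Entpd1 one of 0.553. Without neutrophil clusters, the ratio of T cell clusters over others was 1.14 (IL-12) and 1.33 (control) for Entpd1 and 0.712 (IL-12) and 0.939 (control) for Havcr2. The cause of these changes was not tested. Nr4a2 had ratios from 0.439 to 0.963 over the 17 settings, with the highest in the 22 control cells, and Lag3 in expanded over single-cell clones from 3.69 to 4.78 (IL-12) and 1.60 to 2.03 (control), while Tox there ran from 1.37 to 1.77 (IL-12) and 1.18 to 2.34 (control), Cd160 from 1.17 to 2.09 and 1.41 to 1.72, and Havcr2 from 2.52 to 2.89 and 1.20 to 2.06. The clones of 1% or more, the cells without Foxp3, the cells with barcodes of 1 library and the single-cluster clone comparisons were chosen after seeing the data. No paired analysis was possible because each treatment has 1 library. Depth limits Cd160 most, with 42 UMIs in control T cell clusters.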
